A study of Mus musculus with 8 samples.

Results

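The genes described here encode 10 kallikrein-related peptidases of the mouse epidermis, Klk5, Klk6, Klk7, Klk8, Klk9, Klk10, Klk11, Klk12, Klk13 and Klk14. They were taken as the probe sets whose platform annotation gives 1 of these symbols and no other, which gave 1 probe set for each of the 10 genes among 22180 genes with such a probe set. Dorsal skin of male mice was measured on 8 Affymetrix arrays, 1 array per label. The KO arrays come from the strain B6.Cg-Il22ra1tm1.1Koll/J, whose name marks a targeted allele of Il22ra1, the gene of the IL-22 receptor alpha chain, and the WT arrays from C57BL/6. The KO arrays with imiquimod cream (IMQ) were KO_IMQ_Allo, which also received alloferon cream, KO_IMQ_B and KO_IMQ. Their counterparts without IMQ in the label were KO_Allo, KO_CTRL-B and KO_CTRL. The WT arrays were WT_IMQ and WT_CTRL. IMQ, a Toll-like receptor agonist that gives psoriasis-like inflammation, was given as 83.3 mg of 5% cream a day from day 1 to day 7, and the second cream, vehicle or alloferon, came 6 hours later. Alloferon is a peptide first described in insects. The age of the mice, the meaning of the letter B, whether the allele is conditional, and whether RNA was pooled over the 4 mice per group that the study states are not given in the sources used here.

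Kallikrein-related peptidases are secreted serine proteases that keratinocytes of the upper epidermis make as inactive precursors. In the stratum corneum they activate one another in a cascade, in which KLK5 can activate itself and cleave the precursors of KLK7 and KLK14, as shown with the human enzymes. The active enzymes cut the corneodesmosome proteins that hold corneocytes together, which lets surface cells be shed, and some of them activate the receptor PAR2 on keratinocytes. The inhibitor LEKTI, encoded by Spink5, restrains them, and its loss causes Netherton syndrome in people.

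Some properties of the arrays bear on the kallikrein values. Array medians lay between 6.03 and 6.09 log2 units. The labelled tissue was borne out by epidermal markers, since the median level of 5 measured basal keratinocyte genes was 9.47 to 9.95 and that of 8 granular and suprabasal genes 10.25 to 11.80 over the arrays. Il22ra1 read 8.59 to 9.40 on the KO arrays, against 8.64 on WT_IMQ and 8.23 on WT_CTRL. The ranges of KO and WT arrays overlapped, and a probe set that spans the whole transcript does not check a targeted allele. KO_Allo stood apart from the other arrays without IMQ: the median of the 4 hyperproliferation keratins was 11.08 there, against 8.65 on KO_CTRL-B, 6.99 on KO_CTRL and 7.53 on WT_CTRL, and all 4 IMQ arrays lay at 11.65 to 12.32. Il1b read 4.78 on KO_IMQ_Allo and 7.86 on KO_Allo, the reverse of the other pairs. In those it read 7.89 to 8.68 with IMQ and 4.39 to 4.96 without. The 6 neutrophil genes were split. Mmp9 (5.46 against 6.32) and Csf3r (7.17 against 7.30) were lower on KO_IMQ_Allo than on KO_Allo. Cxcr2 (7.96 against 7.19), Mmp8 (5.68 against 5.42), Fpr2 (4.29 against 3.55) and Ly6g (3.71 against 3.49) were higher. The list median, at 5.57 against 5.87, does not show this split. The median of 5 macrophage genes was higher on KO_IMQ_Allo, at 8.87 against 8.69. The KO_Allo and KO_IMQ_Allo values thus go in part against their labels, most plainly for Il1b. The labels could not be checked further, and the alloferon comparisons and the KO Allo pair difference rest on them. The call over the pairs is therefore also given without the KO Allo pair.

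The main comparison asks how IMQ changed the kallikreins over 4 pairs of arrays, each made up of an IMQ array and the array with the same label but for IMQ (KO plain, KO B, KO Allo and WT). In limma, with a level for each pair and Benjamini-Hochberg adjustment over all genes, 7 of 10 kallikreins rose and 0 fell, where 1.9% of all 22180 genes rose. These were Klk14, Klk13, Klk9, Klk6, Klk8, Klk11 and Klk7, with adjusted p between 0.0124 and 0.0329. In whole skin, fewer cells of a type and less RNA per cell cannot be told apart, and the same holds for more. The difference was above 0 in every pair for all 10 genes, and the median over the 10 was 1.34 log2 units, against -0.01 over all genes. For 8 of 10 kallikreins each IMQ array lay above each array without IMQ, which held for 5.96% of all genes. Without the KO Allo pair 7 were called, all of them shared with the call over 4 pairs, while 826 of all genes rose, against 421 over 4 pairs. The calls rest on few pairs: 5 kallikreins were called without the KO plain pair (260 genes in all), 0 without the WT pair (0 genes) and 0 without the KO B pair (2 genes).

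Klk5, Klk7 and Klk14 are the proteases best known for shedding of corneocytes. Klk14, which encodes a trypsin-like protease, read 7.58 on KO_IMQ, 8.08 on KO_IMQ_B, 6.48 on KO_IMQ_Allo and 8.37 on WT_IMQ. Without IMQ it read 4.24 on KO_CTRL, 4.32 on KO_CTRL-B, 4.40 on KO_Allo and 4.35 on WT_CTRL. The IMQ arrays were spread over nearly 2 log2 units with KO_IMQ_Allo lowest, the arrays without IMQ lay within a narrow band, and the groups were far apart. The rise was 3.30 ± 0.30 log2 units (moderated SE over 4 pairs, adjusted p = 0.0124 in limma), a fold of 9.87 on the RMA scale. That is the largest difference among the 10 genes. The mean over all arrays lay just below the median of gene means (6.06), and RMA compresses differences at low levels.

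Klk7 encodes a chymotrypsin-like protease that cleaves corneodesmosin. It read 11.58 on KO_IMQ, 11.66 on KO_IMQ_B, 11.64 on KO_IMQ_Allo and 11.16 on WT_IMQ. Without IMQ the values were 10.65 on KO_CTRL, 10.75 on KO_CTRL-B, 11.04 on KO_Allo and 10.47 on WT_CTRL. The lowest IMQ array (WT_IMQ) lay just above the highest array without IMQ (KO_Allo), by 0.12 log2 units. Klk7 rose by 0.78 ± 0.10 (adjusted p = 0.0207 in limma), a fold of 1.72. Klk5, the protease at the head of the cascade, read 8.97 on KO_IMQ, 9.34 on KO_IMQ_B, 9.55 on KO_IMQ_Allo and 9.20 on WT_IMQ, against 8.72 on KO_CTRL, 8.25 on KO_CTRL-B, 8.83 on KO_Allo and 8.27 on WT_CTRL. The groups did not overlap, but KO_IMQ and KO_Allo were only 0.14 apart. Klk5 measured 0.75 ± 0.15 (adjusted p = 0.051 in limma) and thus just missed the threshold of 0.05.

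Klk6, Klk8 and Klk13 encode further trypsin-like proteases. Klk6 is also known as neurosin and Klk8 as neuropsin, from their expression in brain. Klk13 read 10.96 on KO_IMQ, 10.76 on KO_IMQ_B, 10.35 on KO_IMQ_Allo and 10.30 on WT_IMQ, against 6.48 on KO_CTRL, 7.62 on KO_CTRL-B, 8.42 on KO_Allo and 6.87 on WT_CTRL. The 4 IMQ arrays were close together, while the arrays without IMQ were spread over almost 2 log2 units with KO_Allo highest. Klk13 rose by 3.24 ± 0.36 (adjusted p = 0.0157 in limma), a fold of 9.48, and by 3.68 without the KO Allo pair. Klk6 read 10.03 on KO_IMQ, 9.96 on KO_IMQ_B, 9.47 on KO_IMQ_Allo and 9.06 on WT_IMQ. Its values without IMQ were 6.41 on KO_CTRL, 7.15 on KO_CTRL-B, 8.59 on KO_Allo and 6.73 on WT_CTRL, so that KO_Allo was nearer to the IMQ arrays than to the rest. Klk6 rose by 2.41 ± 0.39 (adjusted p = 0.0329 in limma), a fold of 5.32, and by 2.92 without the KO Allo pair. With a trended robust prior its adjusted p was 0.0840.

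Klk8 read 9.46 on KO_IMQ, 9.76 on KO_IMQ_B, 9.48 on KO_IMQ_Allo and 9.70 on WT_IMQ. Without IMQ it read 7.79 on KO_CTRL, 7.82 on KO_CTRL-B and 7.78 on WT_CTRL, with KO_Allo above them at 8.67. Klk8 rose by 1.58 ± 0.20 (adjusted p = 0.0190 in limma), a fold of 3.0, with the groups apart by 0.79.

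The remaining genes, Klk9, Klk10, Klk11 and Klk12, encode family members whose epidermal roles are less defined. Klk9 read 10.50 on KO_IMQ, 10.20 on KO_IMQ_B, 10.26 on KO_IMQ_Allo and 9.81 on WT_IMQ, against 7.06 on KO_CTRL, 7.50 on KO_CTRL-B, 8.45 on KO_Allo and 6.63 on WT_CTRL. As for Klk13, the IMQ arrays were close and KO_Allo was the highest of the others. Klk9 rose by 2.78 ± 0.25 (adjusted p = 0.0124 in limma), a fold of 6.87. Klk11 had the most even response over pairs: it read 8.06 to 8.38 on the IMQ arrays and 6.82 to 7.42 on the others, and its differences were 1.00 in the KO plain pair, 1.18 in KO B, 0.96 in KO Allo and 1.24 in WT. It rose by 1.09 ± 0.10 (adjusted p = 0.0124 in limma), a fold of 2.14.

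Klk10 and Klk12 were the genes whose groups overlapped. Klk10 read 10.03 on KO_IMQ, 9.75 on KO_IMQ_B, 9.62 on KO_IMQ_Allo and 8.66 on WT_IMQ, against 8.67 on KO_CTRL, 8.85 on KO_CTRL-B, 9.53 on KO_Allo and 8.57 on WT_CTRL. WT_IMQ lay with the arrays without IMQ, and KO_Allo near the IMQ arrays. Its difference was 0.61 ± 0.23 (adjusted p = 0.215 in limma). Klk12 read 5.91 to 6.63 on the IMQ arrays and 5.34 to 5.94 on the others, around the median of all genes, and measured 0.66 ± 0.19 (adjusted p = 0.127 in limma). Klk12 is also the gene whose sign turned, to -0.52 with the inner root sheath list as a covariate and to -0.19 with the skeletal muscle list.

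**Figure D1:**
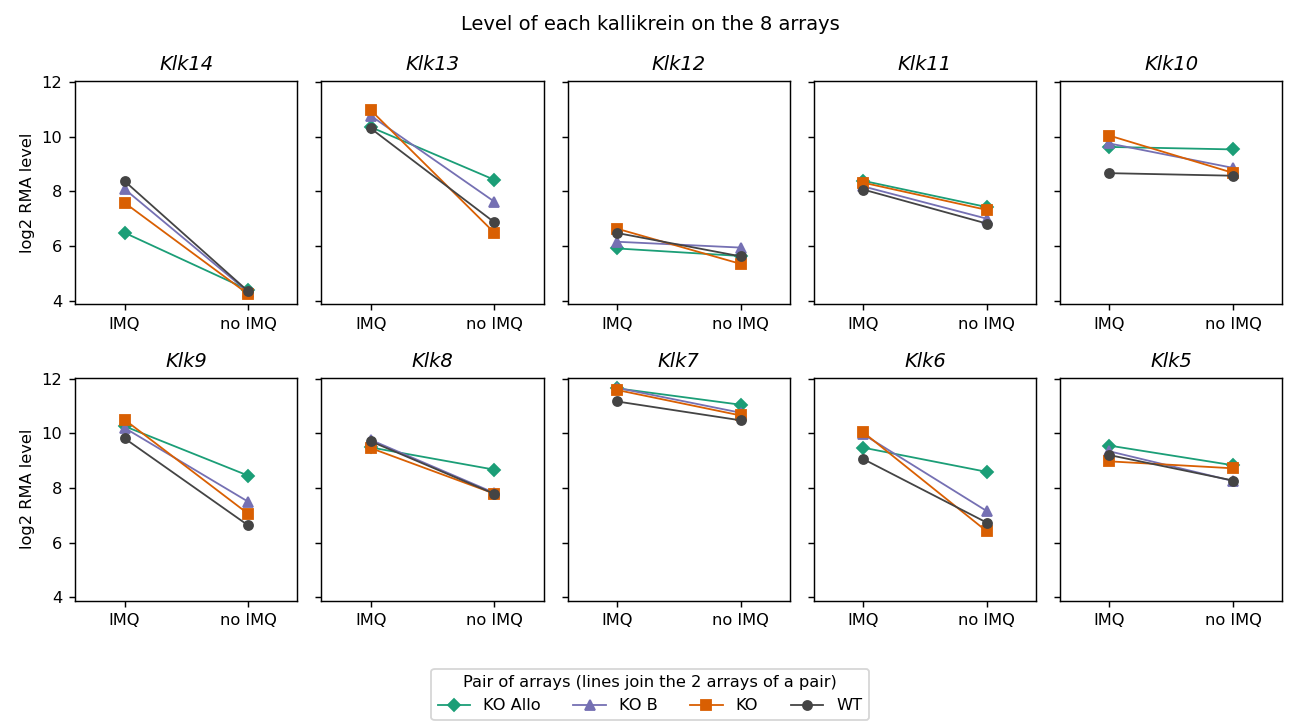
Level of each kallikrein (log2 RMA units, y axis) with IMQ (left) and without IMQ (right) in each panel. Each point is 1 array and each line joins the 2 arrays of a pair. All lines slope down from IMQ to no IMQ; those of Klk13, Klk14, Klk9 and Klk6 are the steepest, and KO_Allo is the highest array without IMQ for 9 of 10 genes, all but Klk12.

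The size of the response varied between pairs. The median difference over the 10 genes was 1.51 in the KO plain pair, 1.56 in the KO B pair, 0.85 in the KO Allo pair and 1.58 in the WT pair. Differences of 1 log2 unit or more (2-fold) were counted in each pair, which is 1 array against 1 without a replicate check. The KO plain pair held 7 of 10 such kallikreins (2.69% of all genes), the KO B pair 7 (1.83%), the KO Allo pair 3 (0.771%) and the WT pair 6 (2.5%). Klk9, Klk13 and Klk14 passed it in all 4 pairs. Of the 10 genes, 8 had their lowest difference in the KO Allo pair, the exceptions being Klk5 (lowest in KO plain) and Klk12 (lowest in KO B). Whether the KO Allo pair differs from the others was not tested.

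Genes of other skin structures and cells also changed with IMQ. Of 7 inner root sheath genes 6 fell, and their median level was 5.04 to 9.71 on the IMQ arrays, against 8.98 to 11.58 on the others. Of 8 hair shaft genes 5 fell (list median -2.17), of 6 melanocyte genes 5 fell (-1.38) and of 7 sebaceous gland genes 2 fell (-0.48). Of 13 skeletal muscle genes 3 fell, with a median level of 7.84 to 9.30 on the IMQ arrays and 8.40 to 11.33 on the others. Of 8 granular and suprabasal keratinocyte genes 2 rose, Casp14 and Asprv1. The list's median level was 11.51 to 11.80 on the IMQ arrays and 10.25 to 11.10 on the others. The rest were not called: Krt1 measured 0.91, Flg 0.88, Ivl 0.42, Lor 0.23, Krt10 0.07 and Krt2 -0.38. For 2 of the 8 each IMQ array lay above each array without IMQ. Of 5 basal keratinocyte genes 1 fell, Krt15 (list median 0.14). Of 4 hyperproliferation keratins 1 rose, Krt16 (list median 3.51). Of 5 macrophage genes 3 rose, with a median level of 8.87 to 9.80 on the IMQ arrays and 8.09 to 8.69 on the others, and of 6 neutrophil genes 2 rose, with 5.57 to 7.19 and 5.22 to 5.87. The part of the keratinocyte, hair shaft, melanocyte, sebaceous and leukocyte genes in the kallikrein result was not tested. With the inner root sheath list as a covariate 0 kallikreins were called by limma (0 genes of all tested), and an unadjusted p under 0.05 was reached by 0 kallikreins and 603 genes. The differences were then 3.05 for Klk14, 2.32 for Klk13, 2.59 for Klk6 and 1.87 for Klk9. With the skeletal muscle list 0 kallikreins were called by limma (0 genes), an unadjusted p under 0.05 was reached by 7 kallikreins and 1428 genes, and the differences were 2.49 for Klk14, 1.60 for Klk13, 0.94 for Klk6 and 1.63 for Klk9.

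The 10 genes form 1 uninterrupted stretch of the kallikrein locus on mouse chromosome 7 among the genes measured here, in the order Klk14, Klk13, Klk12, Klk11, Klk10, Klk9, Klk8, Klk7, Klk6 and Klk5. The locus goes on with Klk4, an enamel protease, then Klk15 and the glandular kallikreins of the Klk1 type. Of these 14 neighbouring kallikrein genes, 0 were called by limma, and their differences lay between -0.45 and 0.23 log2 units, against 0.61 to 3.30 for the 10 epidermal genes. Klk4, next to Klk5, measured -0.03 ± 0.10 at a mean level of 6.18, similar to the level of all genes. Most of the others were dim, with mean levels from 2.64, where RMA compresses differences. An unadjusted p under 0.05 was reached by 1 of the 14, Klk1b21, at -0.37 ± 0.09 (adjusted p = 0.0832). Klk1b24 measured -0.45 and Klk1 -0.23. Beyond the kallikreins, 1 of 12 flanking genes was called, Siglece, which encodes a sialic acid receptor of myeloid cells and measured 1.49 ± 0.14 (adjusted p = 0.0131). Ctu1, which lies between Siglece and Klk14, measured -0.01 ± 0.09. Size did not follow the order along the chromosome: Klk13 and Klk12, which are neighbours, had differences of 3.24 and 0.66.

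**Figure D2:**
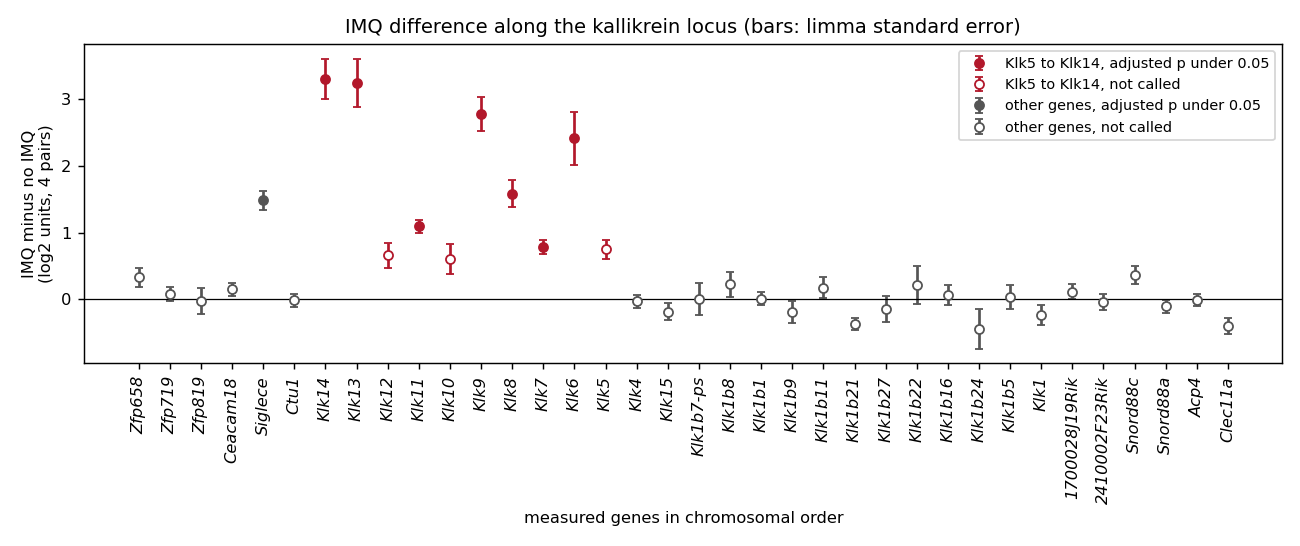
IMQ difference (log2 units, y axis; bars are limma standard errors over 4 pairs) of 36 measured genes in chromosomal order (x axis). Red points are Klk14 to Klk5 and grey points other genes, filled where the adjusted p was under 0.05. The red points lie between 0.61 and 3.30, and from Klk4 on the neighbouring kallikreins lie between -0.45 and 0.23.

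Because 7 of these 10 neighbouring genes rose, RefSeq promoters of GRCm38.p6 (250 bases before to 50 after an annotated start) were searched on both strands for the TATA box letters TATAAA, for the AP-1 type motif TGANTCA, for the Grainyhead-like type motif AACCGGTT, for the STAT type motif TTCNNNGAA and for an NF-kB type motif. All 10 genes matched, with 12 promoters. Among them 0 held TATAAA (13.6% of 32851 promoters did), 0 held TGANTCA (7.81%) and 0 held AACCGGTT (0.146%). TTCNNNGAA was found in 1 of 12 (8.3% of all) and the NF-kB type motif in 1 of 12 (4.79%), both in Klk10, at -238 to -230 and at -218 to -209 from the start, which do not overlap. The absence of a match says only that these letters are not in these windows. The promoters of Klk14, Klk13 and Klk9, the genes with the largest differences, are printed with that of Klk10, the gene with the matches, which are in capitals.
Klk14 promoter, GRCm38.p6 chr7:43690168-43690467, plus strand: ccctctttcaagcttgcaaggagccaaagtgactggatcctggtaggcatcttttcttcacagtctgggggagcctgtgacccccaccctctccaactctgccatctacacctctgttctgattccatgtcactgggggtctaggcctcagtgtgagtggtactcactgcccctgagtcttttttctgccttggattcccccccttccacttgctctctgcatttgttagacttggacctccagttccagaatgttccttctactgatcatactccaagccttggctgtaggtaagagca
Klk13 promoter, GRCm38.p6 chr7:43712317-43712616, plus strand: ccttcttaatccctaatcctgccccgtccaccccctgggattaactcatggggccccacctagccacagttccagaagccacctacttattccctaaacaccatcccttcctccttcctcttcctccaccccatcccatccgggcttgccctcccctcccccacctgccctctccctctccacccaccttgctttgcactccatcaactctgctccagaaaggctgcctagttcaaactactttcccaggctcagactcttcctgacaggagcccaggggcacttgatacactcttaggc
Klk9 promoter, GRCm38.p6 chr7:43791641-43791940, plus strand: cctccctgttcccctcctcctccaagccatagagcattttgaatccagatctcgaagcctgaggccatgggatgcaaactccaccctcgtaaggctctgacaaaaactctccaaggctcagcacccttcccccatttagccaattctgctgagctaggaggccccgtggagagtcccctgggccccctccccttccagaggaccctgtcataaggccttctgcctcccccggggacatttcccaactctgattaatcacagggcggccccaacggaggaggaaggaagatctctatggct
Klk10 promoter, GRCm38.p6 chr7:43780804-43781103, plus strand: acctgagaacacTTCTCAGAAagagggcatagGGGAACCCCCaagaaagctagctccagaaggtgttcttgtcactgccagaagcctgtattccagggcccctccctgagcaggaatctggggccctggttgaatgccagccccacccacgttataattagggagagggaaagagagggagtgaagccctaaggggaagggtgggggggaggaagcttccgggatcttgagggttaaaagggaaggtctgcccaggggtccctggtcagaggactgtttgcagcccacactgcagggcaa

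The proteins that restrain, activate and receive kallikrein activity were set beside the proteases. Of 7 measured kallikrein inhibitors 1 rose, Spink5, by 0.65 ± 0.12 log2 units (adjusted p = 0.0450 in limma), with a list median of 0.15. Spink5 read 11.41 on KO_IMQ, 11.44 on KO_IMQ_B, 11.55 on KO_IMQ_Allo and 11.25 on WT_IMQ, against 11.01 on KO_CTRL, 10.55 on KO_CTRL-B, 11.10 on KO_Allo and 10.38 on WT_CTRL. The groups did not overlap, and the difference is similar in size to those measured for Klk5 and Klk7. Spink7, an inhibitor best known from the oesophagus, measured 2.47 ± 0.56 (adjusted p = 0.0708) and varied more. It read 5.76 on KO_IMQ, 7.02 on KO_IMQ_B, 5.46 on KO_IMQ_Allo and 7.22 on WT_IMQ, against 3.84 on KO_CTRL, 3.13 on KO_CTRL-B, 5.10 on KO_Allo and 3.50 on WT_CTRL. Serpina12, which encodes vaspin, an inhibitor of KLK7 and KLK14 in people, measured 0.40 ± 0.38 (adjusted p = 0.646).

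Of 9 measured proteases that can activate kallikreins or act beside them 1 rose, the membrane protease gene Tmprss13, by 1.04 ± 0.10 (adjusted p = 0.0136 in limma). Plau, which encodes urokinase, measured 0.82 ± 0.17 (adjusted p = 0.0594). St14 and Prss8 encode matriptase and prostasin, membrane proteases of the epidermal barrier. St14 measured -0.51 ± 0.18 (adjusted p = 0.209) and Prss8 0.35 ± 0.13 (adjusted p = 0.225), which are differences of opposite sign that both missed the threshold. The inhibitors of such proteases, Spint1, Spint2 and Serpinb2, were called by limma in 0 of 3 (0 also with an unadjusted p under 0.05). Spint1 measured 0.02, Spint2 -0.05 and Serpinb2 0.39.

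Among 9 measured substrates and PAR2 pathway genes 3 rose, with a list median of 0.69. All 3 encode corneodesmosome components: Dsg1b, a desmoglein, rose by 1.21 ± 0.15 (adjusted p = 0.0207 in limma), Dsc1, a desmocollin, by 0.75 ± 0.13 (adjusted p = 0.0393) and Cdsn, corneodesmosin, by 0.69 ± 0.11 (adjusted p = 0.0353). The other desmogleins measured -0.08 for Dsg1a (adjusted p = 0.839) and -0.73 for Dsg1c (adjusted p = 0.0678). Il1b, whose precursor kallikreins can cut, measured 1.94 ± 1.14 (adjusted p = 0.420). Its reversed KO Allo pair is given above. F2rl1, which encodes PAR2, had no probe set with its symbol alone.

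**Figure D3:**
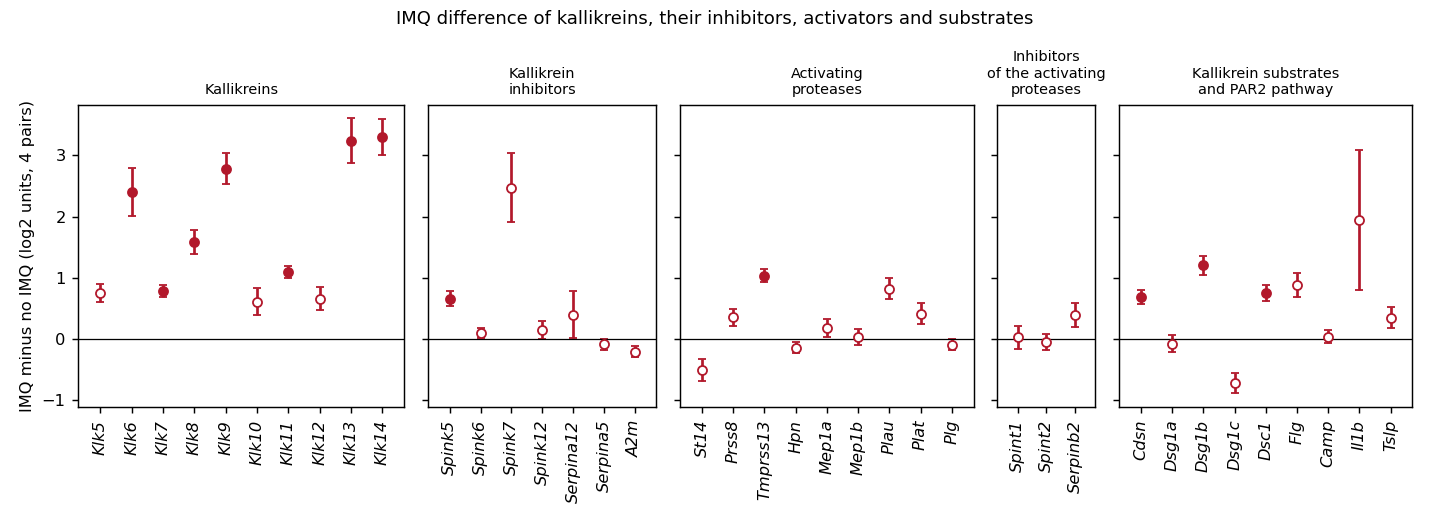
IMQ difference (log2 units, y axis; bars are limma standard errors over 4 pairs) of the kallikreins and of the genes for their inhibitors, activating proteases, the inhibitors of those, and substrates (x axis). Filled points had an adjusted p under 0.05. Filled points are 7 of 10 kallikreins, Spink5, Tmprss13, Cdsn, Dsg1b and Dsc1.

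The series also asks whether the response depends on the IL-22 receptor. Over the 3 KO pairs alone the IMQ difference was 3.06 for Klk14, 3.18 for Klk13, 2.65 for Klk9, 2.44 for Klk6 and 1.47 for Klk8. In the WT pair it was 4.03 log2 units for Klk14, 3.43 for Klk13, 3.18 for Klk9, 2.33 for Klk6 and 1.92 for Klk8. In limma 0 of 10 kallikreins passed over the KO pairs (0% of all genes; an unadjusted p under 0.05 was reached by 10 of 10 kallikreins and 3093 genes), and 5 rose without the KO Allo pair, where 234 of all genes rose. In the WT pair, whose spread is taken from the KO pairs, 0 of 10 passed (0% of all genes; 8 of 10 and 2396 genes unadjusted), and 1 rose without the KO Allo pair, where 21 of all genes rose. The difference of the responses, KO minus WT, passed for 0 of 10 (0% of all genes; 0 of 10 and 914 genes unadjusted). Its 95% interval ran from -0.75 to 0.36 log2 units for Klk11, the narrowest of the 10, and from -2.41 to 2.63 for Klk6, the widest. For Klk14 the difference was -0.97 with an interval from -2.58 to 0.65, and for Klk10 it was 0.69 with an interval from -0.55 to 1.93. For 8 of 10 genes, all but Klk7 and Klk11, the interval held a difference of 1 log2 unit in at least 1 direction. These KO minus WT responses include the KO Allo pair, which received alloferon, as the WT pair did not. By pair, the IMQ difference of Klk14 was 3.34 in KO plain, 3.76 in KO B and 2.08 in KO Allo. That of Klk10 was 1.36, 0.89 and 0.09 in the same order. Without the KO Allo pair the median KO minus WT response over the 10 genes was -0.11, against -0.25 with it.

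Averaged over IMQ status, the KO plain and KO B arrays were set against the WT arrays. In limma 0 of 10 kallikreins differed (0% of all genes; 2 of 10 and 1102 genes with an unadjusted p under 0.05). The 2 were Klk10, at 0.71 ± 0.28 log2 units higher in KO, and Klk7, at 0.34 ± 0.12 (adjusted p = 0.976 for each). On single arrays with IMQ, Klk10 alone of 10 differed by 1 log2 unit or more: by 1.37 on KO_IMQ over WT_IMQ (1.29% of all genes differed so) and by 1.09 on KO_IMQ_B over WT_IMQ (1.22%). Without IMQ 0 of 10 did so on KO_CTRL over WT_CTRL (1.34% of all genes) or on KO_CTRL-B over WT_CTRL (1.14%). The KO arrays without alloferon also differed from each other. On KO_CTRL-B over KO_CTRL 1 of 10 kallikreins was past 1 log2 unit, Klk13 by 1.14. Of all 22180 genes, 324 were higher and 307 lower there by as much, against 99 and 198 on KO_CTRL over WT_CTRL. On KO_IMQ_B over KO_IMQ 0 of 10 kallikreins were past it, with 138 genes higher and 65 lower.

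Alloferon was applied to KO skin only. Without IMQ, KO_Allo lay above KO_CTRL for 10 of 10 kallikreins and above KO_CTRL-B for 9 of 10, the exception being Klk12. By 1 log2 unit or more, 3 of 10 were higher on KO_Allo than on KO_CTRL (1.6% of all genes): Klk6 by 2.17, Klk13 by 1.94 and Klk9 by 1.39. Against KO_CTRL-B it was 1 of 10, Klk6 by 1.43 (0.564% of all genes). Klk14 differed by 0.16 and 0.08 from these arrays and was thus only slightly higher on KO_Allo, although it had the largest IMQ difference. The hyperproliferation keratins, which were also higher on KO_Allo, are given above. With IMQ, Klk14 was the 1 kallikrein of 10 past 1 log2 unit on KO_IMQ_Allo, by -1.10 against KO_IMQ (1.48% of all genes) and by -1.60 against KO_IMQ_B (1.27%). The other 9 differed there by -0.72 to 0.58. Averaged over IMQ status, KO Allo against the other KO arrays gave 0 of 10 in limma (0% of all genes; 0 of 10 and 1263 genes with an unadjusted p under 0.05), with differences from -0.62 for Klk14 to 0.64 for Klk6.

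**Figure D4:**
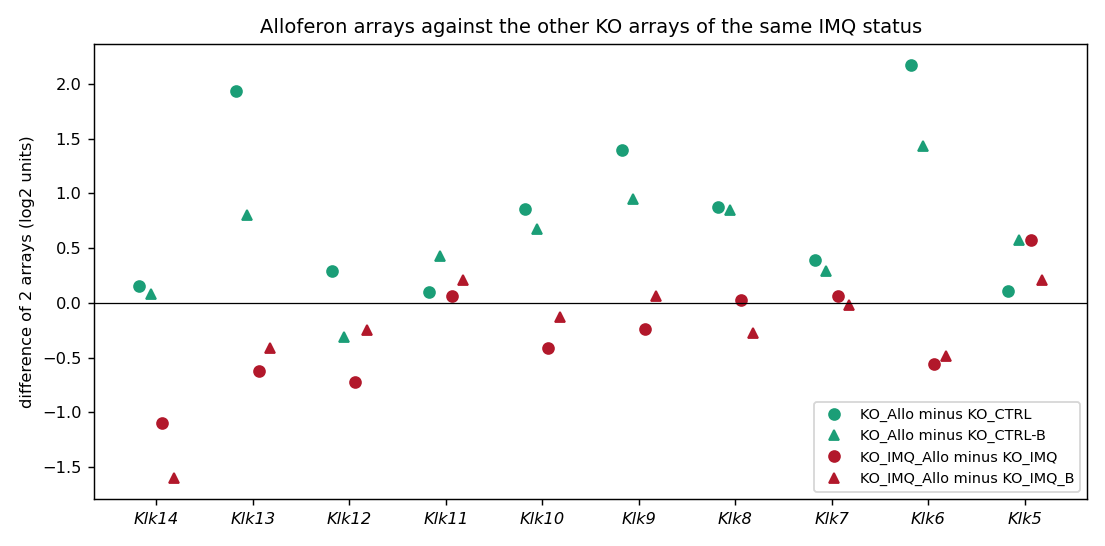
Difference of single arrays (log2 units, y axis) for each kallikrein (x axis): KO_Allo minus each KO array without IMQ in green, KO_IMQ_Allo minus each other KO array with IMQ in red. The green points of Klk6 lie at 1.43 and 2.17, and the red points of Klk14 at -1.60 and -1.10.

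Over the 8 arrays the 10 kallikreins correlated with each other at a Pearson r of 0.42 to 0.99 (median 0.86 over 45 gene pairs). The closest were Klk9 and Klk13 and the least alike Klk5 and Klk12; these arrays share the IMQ contrast, which sets much of such an r. The genes outside the family whose levels followed each kallikrein most closely were sought among 2827 genes that varied by 1 log2 unit or more. For Klk13 these were Sprr2d, a cornified envelope gene (r = 0.996), Pld2 and Pla2g4f, and for Klk9 Sprr2d (r = 0.995), Pld2 and Blmh, an enzyme of filaggrin breakdown. For Klk6 they were Lypd3 (r = 0.994), the desmocollin gene Dsc1 and the glucose transporter gene Slc2a1. For Klk8 they were the stefin gene Stfa2l1 (r = 0.994), Teddm3 and Rbp2. Klk7 was followed by Sox7 (r = 0.996), Plcg2 and the cholesterol sulfotransferase gene Sult2b1, and Klk11 by Aadacl2 (r = 0.993), Mpzl3 and Sh3kbp1. Klk14 was followed by Aif1 (r = 0.992), Tmprss11a, a membrane serine protease gene, and Fermt3. Klk5 was followed by Lrrc28 (r = 0.983), Clec2g and Nt5c3, Klk12 by Efhd2 (r = 0.976), Stap1 and Arrb2, and Klk10 by Ttc39a (r = 0.964), Mir1949 and Mir1934.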

How the data were processed

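The authors deposited log2 levels of 41345 probe sets on 8 arrays. The submitters' processing notes and labels name RMA values from Affymetrix Power Tools, and R 3.3.2 with no role. RMA gives all arrays 1 distribution, so a shift shared by most genes is lost. No detection call was used, and the number of arrays limits the precision. A single symbol was annotated for 23521 probe sets, 1814 carried several symbols and were left out with 16010 unnamed ones. Where probe sets shared a symbol (1082 genes), that with the highest mean was kept, leaving 22180 genes.

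Tests were run in limma 3.58.1 under R 4.3.3 (lmFit, eBayes; Benjamini-Hochberg over all genes; called at an adjusted p under 0.05). The fit over 4 pairs had a level per pair and 1 IMQ effect (3 residual degrees of freedom), and the fit by genotype separate KO and WT effects (2). Errors are moderated standard errors of limma. They combine the variation of a gene's IMQ difference among pairs with a prior estimated from all genes. They can therefore be smaller or larger than the plain standard error over the pairs. Level contrasts leave out variation between pairs of 1 genotype. No source says which arrays are separate animals, so p-values describe these arrays only. The code was tested on simulated data.

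The kallikreins, lists and alternatives were chosen with earlier results of these data known. Named were all 10 kallikreins, called list members or the 3 with the largest differences, and the 3 outside genes of highest Pearson r. Other list members, Siglece and Ctu1 were named after their values were seen. Alternatives were another prior, 2 centrings, a dim-gene filter, other uses of probe sets, B as a second array, no pair levels, each pair left out, and inner root sheath or skeletal muscle lists as covariate.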

Additional observations from a re-analysis of the deposited data

Results flagged for a closer look

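For 30 sets of 4 values (the IMQ arrays, the arrays without IMQ and the pair differences of each kallikrein), the gap of the highest or lowest value to its nearest neighbour was set against the range, a rule that flags about 1 set in 20 by chance. The arrays of a set carry different labels. Klk8 read 8.67 on KO_Allo, far above the other arrays without IMQ, which lay between 7.78 and 7.82. Klk7 read 11.16 on WT_IMQ, below the KO arrays with IMQ, which lay between 11.58 and 11.66.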

How the results depend on the processing

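Over the 4 pairs, the count of called kallikreins was 7 or 8 under another prior, centring, probe set use, dim-gene filter, reading of B or no levels per pair (the fit with no pair block gave 8 kallikreins and 747 genes, against 7 and 685). Klk5 joined under median centring, B as a second array, no pair block, the trended robust prior and the dim-gene filter; Klk6 was lost with that prior, and Klk14 is not tested by that filter, nor is Klk12. With either covariate 0 kallikreins and 0 genes were called over the 4 pairs. Leaving out 1 pair gave 0 to 7 kallikreins and 0 to 1307 genes. The count of all genes was 1028 without dim genes and 454 with B as a second array. Over the KO pairs the trended robust prior gave 1 kallikrein and 50 genes, and leaving out a pair 0 to 5 kallikreins and 0 to 299 genes. For the WT pair it gave 1 gene, the muscle covariate 5 genes, and leaving out a KO pair 0 or 1 kallikreins and 0 to 41 genes. The cause of these changes was not tested. A covariate or a missing pair leaves fewer residual degrees of freedom, and both covariate lists fell with IMQ in every pair.

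Among values of single kallikreins under alternatives, 669 kept direction and side of the threshold, 32 lost and 13 gained a call and 24 changed sign. With the inner root sheath covariate, Klk12 measured -0.52 over 4 pairs, -0.93 over the KO pairs, -1.36 in the WT pair and 0.43 for KO minus WT response, Klk10 measured -0.12 in the WT pair and Klk13 0.25 for KO minus WT response. With the muscle covariate, Klk12 measured -0.19, -0.21, -0.36 and 0.16 in the same order, Klk10 -1.07 and Klk6 -0.09 in the WT pair, and Klk9 0.00 and Klk13 0.61 for KO minus WT response. Under it the KO minus WT level was -0.14 for Klk6 and -0.33 for Klk13, and KO Allo against other KO was -0.22 for Klk6, -0.13 for Klk9, -0.04 for Klk10 and -0.54 for Klk13. Leaving out a pair turned the KO minus WT response to -0.48 (without KO plain) and -0.07 (without KO B) for Klk6 (0.89 without KO Allo) and to 0.38 for Klk13 without KO Allo (-0.90 without KO plain), and the KO minus WT level of Klk8 to 0.04 (without KO plain). Counts of kallikreins past 1 log2 unit on single arrays did not change under median centring or the mean of probe sets.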
